A study of Arabidopsis thaliana with 18 samples.

Results

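The regions described here are the peaks of SVP:GFP and FLC binding to which no gene was assigned, 372 of the 1503 peaks in 4 lists from chromatin immunoprecipitation followed by sequencing (ChIP-seq). They were chosen by a single rule: the gene column of the list held NA or nothing. SVP:GFP in flc-3 gave 53 such peaks of 246, SVP:GFP in WT (with FLC) 39 of 523, FLC in svp-41 (svp-41 FLC FRI) 177 of 419 and FLC in WT (SVP FLC FRI) 103 of 315. All plants were 2-week-old seedlings, and the labels give Columbia-0 FRI, with an active FRI allele, as the ecotype of every sample, although the name of the 35S:GFP line itself holds no FRI. The labels give long days as the photoperiod, whereas the methods of the study give short days for ChIP. The tagged SVP was expressed from its own promoter (pSVP), and both SVP:GFP genotypes, with flc-3 or with FLC, carried svp-41. Each of 6 groups comprised 3 samples. SVP:GFP lists had 35S:GFP plants as controls and FLC lists had svp-41 flc-3 FRI plants, so that by the labels the lists of a protein shared their controls. The supplementary methods of the study describe 4 negative control samples pooled into 1 control without naming them, whereas the labels give 3 control samples for each protein. All 4 lists may thus have shared controls, also in the overlaps between proteins. Each list merged its replicates, so that no value per replicate, no replicate error and no test over samples could be had, and sequencing depth is unknown from the lists. Shares are given with 95% Wilson intervals, which cover counting error only and treat neighbouring peaks as independent.

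SVP and FLC are MADS-box transcription factors that repress flowering, and they can act in a common protein complex. MADS-box proteins bind as dimers to the CArG-box, a short motif with an A/T-rich core. In Arabidopsis, the regions around centromeres and the start of chromosome 2 hold few genes and many repeated sequences. Among these are satellite arrays, ribosomal RNA genes and relics of transposable elements, many of which are annotated as pseudogenes.

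Several sequences recur in the results and are shown first, 5′ to 3′, in the coordinates of TAIR10, read from the RefSeq assembly TAIR10.1. The first is a copied sequence of the largest family, in a tandem array with a period of 178 bp, with the 18 bases that 57 of its 71 peaks shared in capitals (chr4:4000657-4000856, plus strand).
Family 1: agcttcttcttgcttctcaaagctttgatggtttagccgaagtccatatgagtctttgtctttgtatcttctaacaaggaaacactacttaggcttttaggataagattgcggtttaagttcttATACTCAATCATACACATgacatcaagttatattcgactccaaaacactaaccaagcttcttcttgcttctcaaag
The second is from the second largest family, with no part in capitals (chr3:13712954-13713153, plus strand).
Family 2: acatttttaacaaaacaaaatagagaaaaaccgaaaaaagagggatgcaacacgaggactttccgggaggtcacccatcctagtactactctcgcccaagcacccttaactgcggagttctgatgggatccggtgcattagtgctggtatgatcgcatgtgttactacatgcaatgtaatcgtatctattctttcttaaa
The next surrounds the summit of the peak with the highest −log10 p of all 372, near the start of chromosome 2 (chr2:32928-33127, plus strand, no part in capitals).
Family 5: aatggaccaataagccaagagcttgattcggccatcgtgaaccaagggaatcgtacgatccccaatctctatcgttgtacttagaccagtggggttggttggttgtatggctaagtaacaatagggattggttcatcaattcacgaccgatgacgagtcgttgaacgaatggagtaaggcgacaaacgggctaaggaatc
Finally, a single-copy region upstream of HB40 and one near RAD51B are shown with their CArG-boxes in capitals (chr4:17319798-17319997 and chr2:12232828-12233027, plus strand).
HB40: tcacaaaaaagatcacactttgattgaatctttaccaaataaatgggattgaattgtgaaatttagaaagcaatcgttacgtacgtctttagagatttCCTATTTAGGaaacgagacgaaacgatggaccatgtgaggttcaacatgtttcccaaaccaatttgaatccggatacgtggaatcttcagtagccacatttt
RAD51B: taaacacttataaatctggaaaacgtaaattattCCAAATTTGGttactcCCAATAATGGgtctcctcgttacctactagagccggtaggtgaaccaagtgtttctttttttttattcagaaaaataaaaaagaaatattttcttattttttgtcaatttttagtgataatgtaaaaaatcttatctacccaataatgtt

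These peaks were not all far from annotated genes. Genes had been assigned by the authors when a peak summit lay from 3 kb upstream to 1 kb downstream of a gene, and 1901 of 1906 assigned pairs of peak and gene fitted this window in TAIR10.1. Of the 372 summits, 13 lay within such a window of a protein-coding gene in TAIR10.1, and 256 lay within it when genes of any kind and pseudogenes were counted. No summit lay inside a protein-coding gene, which follows largely from the way the peaks were chosen. Inside a pseudogene lay 129, inside a transcribed pseudogene 10, inside a gene of class misc_RNA 7 and inside a lncRNA 3. Pseudogenes of both classes held 139 of the 372 summits (37.4%), against 24 of 1131 with a gene and 10.8% of all 1503 peaks. The nearest protein-coding gene was within 10 kb for 205 peaks, 33 bp away at the least, over 10 kb away for 167 and over 50 kb away for 80. Close to the boundary, the nearest peaks outside the window lay 3152 bp upstream and 1003 bp downstream of a gene, while the farthest assigned pairs inside it lay 2989 bp upstream and 987 bp downstream.

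Peaks without a gene made up different shares of the lists. The share was 21.5% (16.9 to 27.1%) for SVP:GFP in flc-3 against 7.46% (5.50 to 10.03%) for SVP:GFP in WT. For FLC it was 42.2% (37.6 to 47.0%) in svp-41 against 32.7% (27.8 to 38.1%) in WT. The intervals of the SVP:GFP lists did not overlap, and those of the FLC lists overlapped by less than a percentage point. These shares fell close together when peaks at copied sequence were set aside. A peak counted as copied when its central 200 bp had a second match elsewhere in the genome, over 150 bp and at 95% identity or more. Among single-copy peaks, 6.95% (13 of 187) had no gene for SVP:GFP in flc-3 against 6.06% (30 of 495) for SVP:GFP in WT, and 8.73% (20 of 229) for FLC in svp-41 against 7.51% (16 of 213) for FLC in WT.

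**Figure D1:**
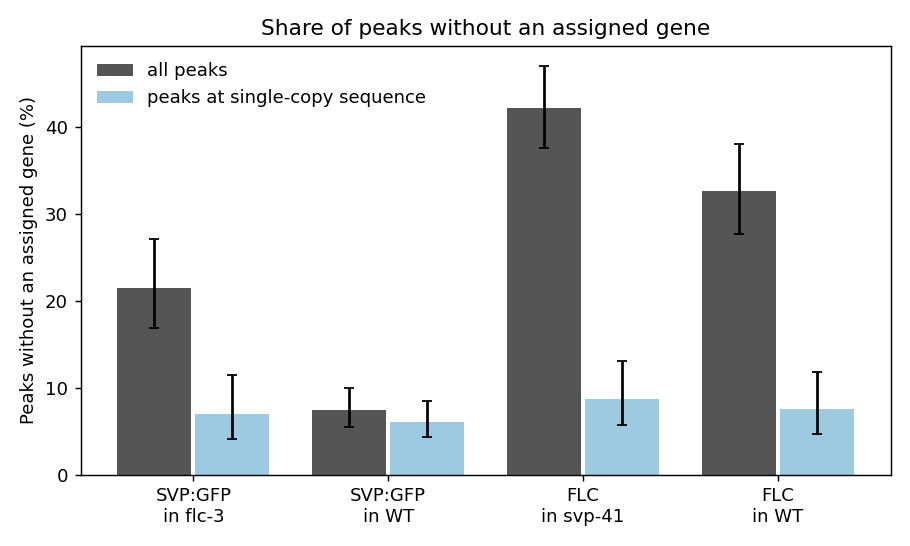
Percent of peaks without an assigned gene in each list (bars) with 95% Wilson intervals, over all peaks and over peaks at single-copy sequence. The 4 lists spread from 7.46% to 42.2% over all peaks and from 6.06% to 8.73% over single-copy peaks.

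Copied sequence lay under most peaks without a gene in 3 lists, and under the smaller part of them in SVP:GFP in WT. It was found at 40 of 53 peaks without a gene for SVP:GFP in flc-3 (75.5%, 62.4 to 85.1%), against 19 of 193 peaks with a gene, and under 24% of all peaks of that list. In SVP:GFP in WT the numbers were 9 of 39 peaks without a gene (23.1%, 12.6 to 38.3%) and 19 of 484 with a gene, with 5.35% over all peaks. FLC in svp-41 had 157 of 177 (88.7%, 83.2 to 92.6%) and 33 of 242, with 45.3% over all peaks. FLC in WT had 87 of 103 (84.5%, 76.2 to 90.2%) and 15 of 212, with 32.4% over all peaks. In every list the share was thus higher without than with a gene. The limits of identity and length changed the shares without a gene. At 90% over 100 bp they were 81.1%, 43.6% (17 of 39), 95.5% and 85.4%, in the same order of lists. At 99% over 180 bp they were 49.1% (26 of 53), 17.9%, 62.1% and 62.1%. Bowtie reported the best place for a read that matched several, and between equal places the position of such a peak cannot be told apart. Many of the copied peaks had numerous copies: 214 of the 372 peaks had 10 or more, and the most copied peak had 138.

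**Figure D2:**
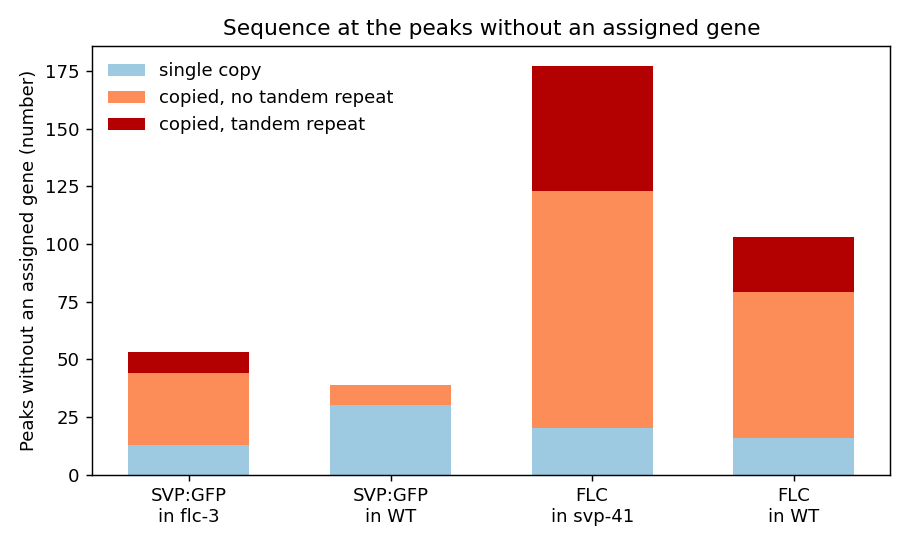
Number of peaks without an assigned gene in each list (stacked bars), divided into single-copy sequence, copied sequence outside tandem repeats and copied sequence in tandem repeats. SVP:GFP in WT had 30 single-copy peaks of 39, and FLC in svp-41 had 20 of 177.

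Peaks without a gene were narrower than peaks with a gene in each list. The median width was 175 bp without and 469 bp with a gene in SVP:GFP in flc-3, and 518 and 625 bp in SVP:GFP in WT. It was 233 and 328.5 bp in FLC in svp-41, and 161 and 271 bp in FLC in WT. Median fold-enrichment over control was 2.62 without and 3.58 with a gene for SVP:GFP in flc-3, 3.62 and 3.70 for SVP:GFP in WT, 2.90 and 3.88 for FLC in svp-41, and 2.64 and 3.44 for FLC in WT. Both measures are the authors' values over merged replicates and were compared only within a list. For single-copy peaks without a gene the median width was 380, 519, 263.5 and 227.5 bp in the same order of lists. Their median fold-enrichment was 3.33, 3.56, 3.59 and 3.25. Copied peaks with a gene had a median width of 364, 615, 264 and 163 bp and a median fold-enrichment of 2.38, 3.27, 1.59 and 1.79. The widest peaks without a gene were of 4826 bp in SVP:GFP in flc-3 (chr1:29804569-29809395, fold-enrichment 2.51), with its summit in the transcribed pseudogene AT1G79245 downstream of the AGC kinase gene AGC1.7, and of 1868, 1911 and 794 bp in SVP:GFP in WT, FLC in svp-41 and FLC in WT, all over the pseudogene AT2G01029.

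Along the chromosomes, the peaks gathered in gene-poor regions and at the start of chromosome 2. The 5-Mb window of each chromosome with the least protein-coding sequence (11.9 to 19.6% of its bases) served to describe this. It is not independent of the way the peaks were chosen and is given as a description. It held 28 of 53 peaks without a gene in SVP:GFP in flc-3 against 30 of 193 with a gene, and 10 of 39 against 24 of 484 in SVP:GFP in WT. In FLC in svp-41 it held 126 of 177 against 29 of 242, and in FLC in WT 58 of 103 against 14 of 212. Chromosome 2 carried 24, 16, 58 and 47 peaks without a gene in SVP:GFP in flc-3, SVP:GFP in WT, FLC in svp-41 and FLC in WT, whereas chromosome 1, the longest, carried 3, 6, 4 and 7. Of all peaks, with or without a gene, chromosome 2 carried 82 of 246, 105 of 523, 106 of 419 and 85 of 315 in the same order. Chromosome 1 carried 44, 133, 69 and 62 of them.

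**Figure D3:**
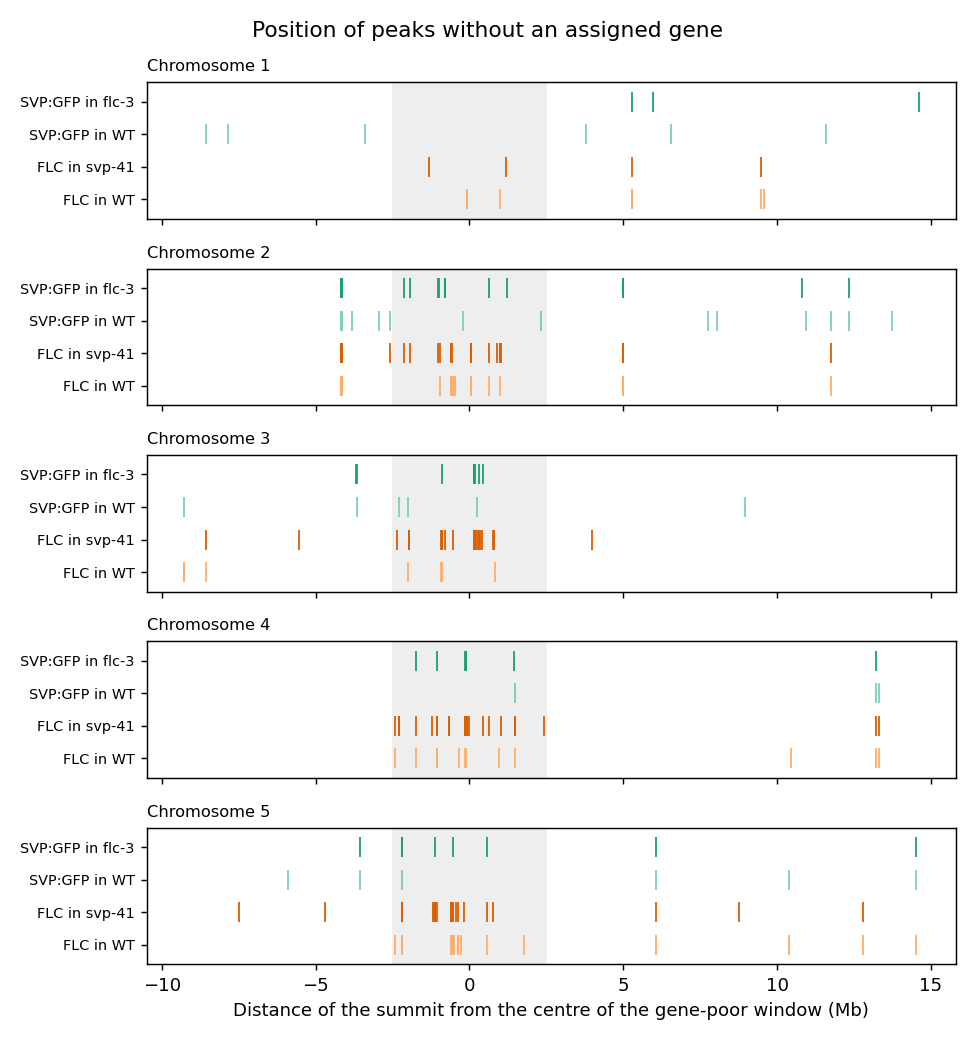
Distance of each summit without an assigned gene from the centre of the gene-poor window of its chromosome (ticks, Mb), by chromosome and list, with the 5-Mb window shaded. FLC in svp-41 had 126 of 177 ticks in the shaded windows and SVP:GFP in WT 10 of 39, and the dense group left of the window on chromosome 2 is the cluster of 79 peaks at its start.

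Overlapping peaks without a gene were merged into 249 loci, of which 54 were single-copy. Only peaks without a gene entered the loci, so that a locus of 1 list alone may still overlap a peak with a gene in another list. Overlaps with any peak, beside the shares over all peaks, are given further below. Most loci (167) came from 1 list, 59 from 2, 15 from 3 and 8 from all 4. The largest classes were 103 loci of FLC in svp-41 alone, 37 of both FLC lists, 32 of FLC in WT alone, 19 of SVP:GFP in WT alone and 13 of SVP:GFP in flc-3 alone. Of the 19 loci with a peak of SVP:GFP in WT alone, 18 were single-copy, against 9 of the 103 of FLC in svp-41. Peaks of both proteins met at 42 loci.

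Overlap of at least 1 bp with any peak of the same protein in the other genotype was counted next; the lists compared share their controls. For SVP:GFP in flc-3, 14 of 53 peaks without a gene overlapped a peak in WT (26.4%, 16.4 to 39.6%), against 134 of 193 with a gene and 60.2% of all peaks. For SVP:GFP in WT, 13 of 39 overlapped a peak in flc-3 (33.3%), against 131 of 484 with a gene and 27.5% of all peaks. For FLC in svp-41, 60 of 177 overlapped a peak in WT (33.9%), against 115 of 242 and 41.8% of all. For FLC in WT, 67 of 103 overlapped a peak in svp-41 (65.05%), against 116 of 212 and 58.1% of all. Some of these shares depended on which peaks were counted. For SVP:GFP in flc-3 the share was 46.2% (6 of 13) without copied sequence, 41.7% (10 of 24) at a −log10 p of at least 20, 40.6% (13 of 32) with the highest list minimum applied to all lists, and 16.98% when 50% of both peaks had to overlap. For FLC in WT it was 77.3% (17 of 22) at a −log10 p of at least 20 and 77.8% (21 of 27) with the highest list minimum. It was 50% (8 of 16) without copied sequence, 53.4% with summits within 100 bp and 39.8% with an overlap of 50% of both peaks. For FLC in svp-41 it was 45% (9 of 20) without copied sequence and 23.7% with an overlap of 50% of both peaks. Peaks with a gene were not counted again under these choices.

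Peaks of the other protein gave another picture. In SVP:GFP in flc-3, 36 of 53 peaks without a gene overlapped an FLC peak in svp-41 (67.9%, 54.5 to 78.9%), against 50 of 193 with a gene and 35% of all peaks. In SVP:GFP in WT, 16 of 39 overlapped an FLC peak in WT (41.03%), against 127 of 484 and 27.3% of all. In the reverse direction, 33 of 177 FLC peaks without a gene in svp-41 overlapped SVP:GFP in flc-3 (18.6%), against 49 of 242 and 19.6% of all, which is close to the share over all peaks. In FLC in WT, 18 of 103 overlapped SVP:GFP in WT (17.5%, 11.4 to 25.9%), against 128 of 212 with a gene and 46.3% of all peaks. The share in FLC in WT depended on which peaks were counted. It was 50% without copied sequence (8 of 16) and at a −log10 p of at least 20 (11 of 22). It was 44.4% (12 of 27) with the highest list minimum for all lists, but 10.7% with an overlap of 50% of both peaks. For SVP:GFP in flc-3 the share moved the other way without copied sequence, to 30.8% (4 of 13), and was 45.3% with an overlap of 50% of both peaks. Peaks with a gene were not counted again under these choices, so that no comparison with them can be made there.

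The largest cluster along a chromosome, with neighbouring loci at most 10 kb apart, lay at the start of chromosome 2 (chr2:7790-67038) and held 36 loci and 79 peaks, 21.2% of all peaks without a gene. It comprised 12 peaks of SVP:GFP in flc-3, 4 of SVP:GFP in WT, 35 of FLC in svp-41 and 28 of FLC in WT. The first 70 kb hold 2 ribosomal RNA gene models, AT2G01010 and AT2G01020, and 9 pseudogene models, and 63 of the 79 summits lay inside a pseudogene. Every one of the 79 was at copied sequence, with 1 to 29 copies and a median of 11, and their median GC content was 50.5%, against 36.0% over the nuclear genome. Fold-enrichment in the cluster had a median of 4.17 in SVP:GFP in flc-3 and 4.72 in SVP:GFP in WT, and of 3.89 in FLC in svp-41 and 3.18 in FLC in WT. These were above the medians over all peaks without a gene of the same lists.

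The strongest peaks without a gene were in this cluster, over the pseudogene AT2G01029, which RefSeq places at chr2:28465-38652. They made up the top 3 by −log10 p in SVP:GFP in flc-3, FLC in svp-41 and FLC in WT, where they ranked from 3 to 18 among all peaks. The first locus (chr2:31594-32670) had a fold-enrichment of up to 9.22 for SVP:GFP in flc-3 and 5.42 for SVP:GFP in WT, and of 9.23 for FLC in svp-41 and 9.83 for FLC in WT. The second (chr2:32802-33488) had 7.55 for SVP:GFP in flc-3 and 4.39 for SVP:GFP in WT, and 15.5 for FLC in svp-41 and 9.39 for FLC in WT. The third (chr2:34539-36450) had 8.15 and 5.04 for SVP:GFP, and 9.57 and 8.23 for FLC, in the same order. All 3 thus had peaks in all 4 lists, and the sequence of the second is the one shown as Family 5. Their families 3, 5 and 6 together comprised 72 peaks at 33 loci, and 34 of these peaks lay in the first 70 kb of chromosome 2. At least 2 of the 3 families stood together in 5 of 16 clusters, but all 3 did so only in the cluster at the start of chromosome 2. Family 5 had 20 peaks at 9 loci and family 6 had 17 peaks at 6 loci, and all 17 summits of family 6 lay inside pseudogenes.

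**Figure D4:**
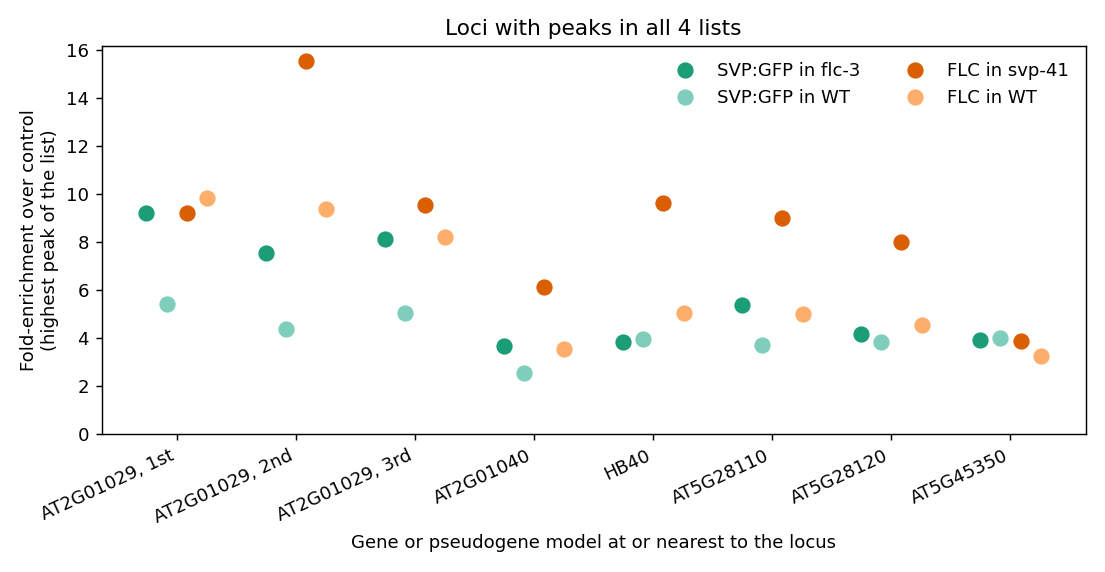
Fold-enrichment over control (points, highest peak of a list at a locus) at the 8 loci with peaks without an assigned gene in all 4 lists, named by the gene or pseudogene model at or nearest to each. FLC in svp-41 reached 15.5 at the second AT2G01029 locus, and at AT5G45350 the 4 lists lay between 3.24 and 4.01.

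The other loci found in all 4 lists were 5. A further locus in the chromosome 2 cluster (chr2:65059-65489) lay by the pseudogene AT2G01040. On chromosome 5, a pair of copies at the pseudogenes AT5G28110 and AT5G28120 had a fold-enrichment of 5.40 and 4.19 for SVP:GFP in flc-3, 3.71 and 3.85 for SVP:GFP in WT, 9.02 and 8.01 for FLC in svp-41, and 5.02 and 4.56 for FLC in WT. The remaining pair were the single-copy loci near HB40 and AT5G45350. The HB40 locus (chr4:17319696-17320208) lay about 3.5 kb upstream of HB40 (AT4G36740), which encodes a homeodomain-leucine zipper transcription factor. Its fold-enrichment was 3.82 for SVP:GFP in flc-3 against 3.97 in WT, and 9.64 for FLC in svp-41 against 5.06 in WT. The −log10 p was 18.7 and 35.8 in these SVP:GFP lists, and 84.6 and 25.9 in the FLC lists. All 4 summits lay within 50 bp of the CArG-box CCTATTTAGG. The locus near AT5G45350 (chr5:18378824-18379241) had no CArG-box in the 200 bp around the summits.

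Single-copy loci with peaks of both proteins numbered 11, and those with the highest −log10 p are named here. After HB40 came a locus near AT4G08760 (chr4:5583504-5584336), with a fold-enrichment of 5.75 for FLC in svp-41 and 3.43 for SVP:GFP in WT. It belongs to family 5 by weaker similarity, although it passed the copy limit as single-copy. A locus 2938 to 2965 bp upstream of AFP3, encoding an ABI5-binding protein, had 4.72 for SVP:GFP in WT and 3.39 for FLC in WT. A locus 2213 to 2263 bp downstream of BRG3, encoding a RING protein, had 4.29 for SVP:GFP in WT and 5.29 for FLC in WT. At 870 to 933 bp downstream of DEAR2, which encodes an AP2/ERF protein, fold-enrichment was 4.32 for SVP:GFP in flc-3, 4.09 for SVP:GFP in WT and 5.74 for FLC in WT. The AFP3 and DEAR2 summits thus lay inside the assignment window although the lists held no gene for them.

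In SVP:GFP in WT the first 2 peaks without a gene by −log10 p lay in single-copy sequence near genes, and the next was the first AT2G01029 locus. The highest −log10 p, 102, belonged to a peak (chr5:8731762-8732750) 3761 bp upstream of KNAT3, encoding a KNOX homeodomain protein. Its fold-enrichment was 4.64 in flc-3 against 6.85 in WT, and no FLC peak without a gene was listed there. The next (chr2:16553358-16553876) lay in a lncRNA gene, 3152 bp upstream of RTFL8, which encodes a small peptide of the ROTUNDIFOLIA-like family, with 3.43 in flc-3 against 5.55 in WT. The peak 2948 bp downstream of RAD51B, a gene of DNA repair (chr2:12232660-12233279, fold-enrichment 5.13), was without a peak of another list among the loci without a gene, was named after its values were seen and had 2 CArG-boxes.

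Sequence families were formed from peaks matching each other with at least 80% identity over 100 bp. There were 24 families of 2 or more loci, comprising 252 peaks, and they were ranked by their number of loci. Family 1, the largest, had 71 peaks at 52 loci: 7 in SVP:GFP in flc-3, 0 in SVP:GFP in WT, 45 in FLC in svp-41 and 19 in FLC in WT. All 71 lay in the gene-poor windows and 66 in tandem repeats, most often with a period of 178 bp, close to the known unit of the centromeric satellite of Arabidopsis. Their enrichment was low, with a median of 1.73 in SVP:GFP in flc-3, 1.58 in FLC in svp-41 and 1.52 in FLC in WT, although a peak of FLC in WT reached 5.57. The next largest clusters belonged to this array sequence: 21 peaks at 14 loci (chr5:11723360-11737512), all of FLC, and 14 peaks at 10 loci (chr4:3999363-4010461).

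Family 2 had 25 peaks at 20 loci on chromosomes 3, 4 and 5, of which 4 were in SVP:GFP in flc-3, 0 in SVP:GFP in WT, 18 in FLC in svp-41 and 3 in FLC in WT. Tandem repeats held 14 of them, most often with a period of 498 bp, close to the known spacing of 5S ribosomal RNA genes, and the median fold-enrichment was 2.05, 1.57 and 1.34 in the 3 lists, in the same order. Family 3 had 35 peaks at 18 loci on all 5 chromosomes, in all 4 lists, with a median GC content of 52.5% and no tandem period. Its median fold-enrichment was 4.03 in SVP:GFP in flc-3 and 3.82 in SVP:GFP in WT, and 4.47 in FLC in svp-41 and 3.69 in FLC in WT. Over all families, 90 peaks lay in tandem repeats, 9 in SVP:GFP in flc-3, 0 in SVP:GFP in WT, 56 in FLC in svp-41 and 25 in FLC in WT. Over all peaks, tandem repeats held 4.07% in SVP:GFP in flc-3, 0 of 523 in SVP:GFP in WT, 16.9% in FLC in svp-41 and 9.84% in FLC in WT. The 0 of 39 in SVP:GFP in WT allows a share of up to 8.97%, and no peak with a gene in that list lay in a tandem repeat either. The peaks of the FLC in svp-41 and FLC in WT lists reach to a lower −log10 p (9.24 and 4.33) than those of SVP:GFP in flc-3 (11.4) and in WT (17.2). With the highest of these minima applied to all lists, the share of peaks without a gene was 22.9% (32 of 140) for SVP:GFP in flc-3 against 7.46% for SVP:GFP in WT, and 35.1% (65 of 185) for FLC in svp-41 against 29.7% (27 of 91) for FLC in WT. The part of the minima in the counts by family was not tested.

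**Figure D5:**
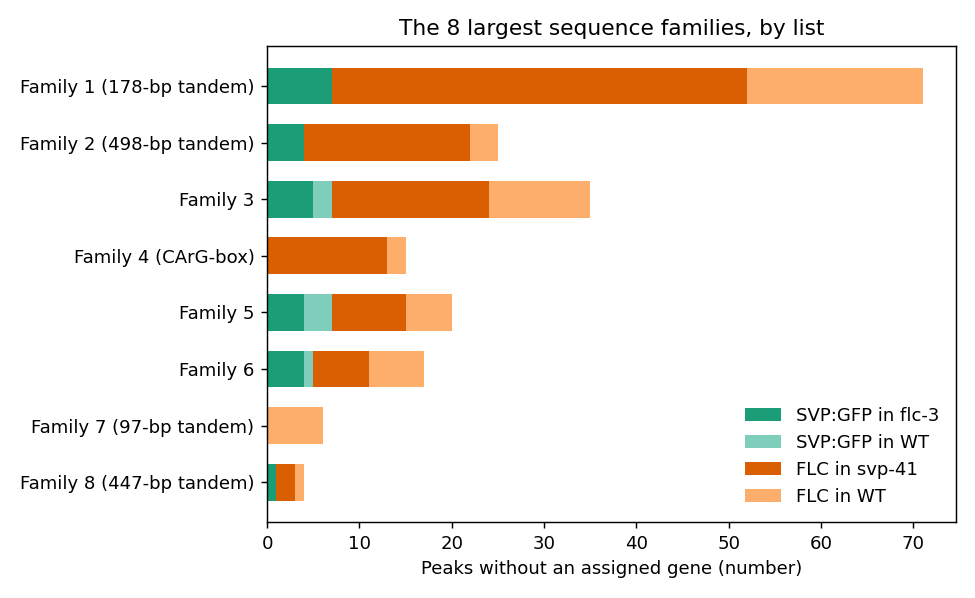
Number of peaks without an assigned gene in the 8 sequence families with the most loci (stacked bars, by list). Family 1 had 45 peaks of FLC in svp-41 and 0 of SVP:GFP in WT, and family 4 had 13 and 2 peaks of FLC in svp-41 and in WT.

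CArG-boxes were searched as CC, then 6 of A or T, then GG, a pattern that reads alike on both strands, in the 200 bp around the summit. The box was present in 1.23% of all 594683 windows of 200 bp in the nuclear genome. In SVP:GFP in flc-3 it was present in 2 of 53 peaks without a gene (3.77%, 1.04 to 12.8%), against 16 of 193 with a gene and 7.32% of all peaks. In SVP:GFP in WT it was present in 2 of 39 (5.13%), against 21 of 484 and 4.4% of all. FLC in svp-41 had 14 of 177 (7.91%, 4.77 to 12.8%), against 25 of 242 and 9.31% of all, and FLC in WT 5 of 103 (4.85%), against 23 of 212 and 8.89% of all. In each list the interval without a gene contained the share over all peaks. The G-box CACGTG was present in 2.20% of the windows. It was found in 2 of 53 peaks without a gene in SVP:GFP in flc-3 (3.77%), against 35 of 193 with a gene and 15.04% of all peaks. SVP:GFP in WT had 4 of 39 (10.3%), against 83 of 484 and 16.6% of all. FLC in svp-41 had 1 of 177 (0.565%), against 15 of 242 and 3.82% of all, and FLC in WT 2 of 103 (1.94%), against 26 of 212 and 8.89% of all.

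Of the 14 peaks of FLC in svp-41 with a CArG-box, 11 came from a single sequence family, family 4, which was singled out after its values were seen. It had 15 peaks at 14 loci on all 5 chromosomes, 13 in FLC in svp-41 and 2 in FLC in WT, with none in the SVP:GFP lists. Fold-enrichment ranged from 2.65 to 4.92, and the nearest annotated model of all 15 was a pseudogene at most 260 bp away. In 13 of the 15 peaks the same box, CCAAAAATGG, lay within 50 bp of the summit. The sites of 4 loci are shown with the position of the box in capitals, on the strand that reads CCAAAAATGG; the last pair are the loci that lack the motif, with A4G on chromosome 1 and A5G on chromosome 5, counted from 1 at the 5′ end of the box (chr3:12484444-12484473 plus, chr4:4099387-4099416 minus, chr1:16381944-16381973 minus, chr5:13074707-13074736 plus).
Chromosome 3, with box: tgtgcggtttCCAAAAATGGaaagtttcct
Chromosome 4, with box: tgtgtggtttCCAAAAATGGaaagtttccc
Chromosome 1, without box: tgtgcggtttCCAGAAATGGaaagttttcc
Chromosome 5, without box: tgtgcggtttCCAAGAATGGaaagttttcc
The chromosome 3 site had a fold-enrichment of 4.71 in svp-41 against 4.92 in WT, the highest of the family in each list. The loci without the box had 3.42 on chromosome 1 and 3.92 on chromosome 5, both in FLC in svp-41. These values lay within the range of the 11 peaks with the box in that list, 2.66 to 4.71. The sequence of the chromosome 3 site matched 43 places in the genome, itself included, at 80% identity over 100 bp. Among the 25 places with an intact box, 11 lay under a peak of FLC in svp-41 and 2 under one of FLC in WT. Among the 18 without it, 2 and 0 did. Over all 43 places the shares were 30.2% and 4.65%. The contrast is not independent of the choice of the family, because the query held the box and the family's own peaks are among the 43 places. Places without the box also tended to match the query less closely, so that box and similarity cannot be told apart here. None of the 43 overlapped an SVP:GFP peak of either list. Reads from such copies can be placed at another copy, and its part in these counts was not tested.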

How the data were processed

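ChIP-seq peaks were taken from 4 deposited lists over 18 samples. According to the study's methods, reads were filtered, mapped to TAIR10 with Bowtie2 2.0.2 (CASAVA 1.8 is also named in the submitters' processing notes) with the best place reported for reads matching several, and peaks were called with MACS against pooled controls, kept by reproducibility between replicates and overlap with NarrowPeaks regions. The deposited fold-enrichment is a ratio of ChIP to control, and the deposited −log10 p is the p-value of the peak caller, both made by the authors on merged replicates. Neither keeps depth, so that no interval can be given for them. No column of per-sample values was left unused (0).

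From these lists, peaks with no gene were annotated against TAIR10.1 (Python 3.11.15, pandas 2.3.3, blastn 2.17.0, with bedtools 2.31.1 as a check of overlaps on simulated data). The width is end minus start. Copies, sequence families, tandem periods (the shortest lag of 20 to 800 bp within 5 percentage points of the best self-identity over 2 kb, called tandem from 60%), overlaps and motifs were counted. The copy, period, overlap, motif and gene-poor window steps were tested on simulated data. No test over samples was run.

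The members and lists were chosen with earlier results of these data known. Regions named are the 3 peaks without a gene with the highest −log10 p and the widest in each list, loci in all 4 lists, the 3 largest clusters and families, and the 5 single-copy loci of both proteins with the highest −log10 p. Exceptions, and the tandem step, were chosen after values were seen. Alternatives concerned the peak threshold, copy, window, overlap, motif, cluster and family definitions.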

Additional observations from a re-analysis of the deposited data

How the results depend on the processing

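No paired analysis was possible because each list merges its replicates. Of 117 recomputed values, which were the shares of peaks without a gene, the other shares over all lists, the medians by list and the counts of clusters and families, 68 moved by less than their counting interval or spread and 49 by more. For the other shares in single lists the numbers were 73 and 43. Causes were not tested.

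With genes of any kind assigned again, the share of peaks without a gene was 5.69% in SVP:GFP in flc-3, 2.68% in SVP:GFP in WT, 12.9% in FLC in svp-41, 10.8% in FLC in WT and 7.72% over all lists. Without copied sequence it was 6.95% in SVP:GFP in flc-3, 8.73% in FLC in svp-41, 7.51% in FLC in WT and 7.03% over all, the share in gene-poor windows 30.4%, the overlap with the other protein 32.9% (higher than with copied sequence in FLC in WT and lower in SVP:GFP in flc-3), and the median width 380 bp in SVP:GFP in flc-3 and 227.5 bp in FLC in WT. 

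Without the first 70 kb of chromosome 2, which was added once the data had been seen, the share without a gene was 37.4% in FLC in svp-41, 26.2% in FLC in WT and 20.6% over all, copied sequence 73.0%, gene-poor windows 75.8% and overlap with the same protein 32.8%; the largest cluster then had 14 loci, and 15 families remained in number.

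At a −log10 p of at least 20, the share without a gene was 34.9% in FLC in svp-41 and 16.7% over all, copied sequence 71.6%, gene-poor windows 40.3% and overlap with the other protein 36.6%. Median fold-enrichment was 4.02 in SVP:GFP in flc-3, 4.71 in FLC in svp-41 and 5.13 in FLC in WT, and median −log10 p 32.9, 29.8 and 26.1 in these lists. With the highest list minimum applied to all lists, the same shares were 35.1%, 17.4%, 72.4%, 42.9% and 36.8%, and for FLC in svp-41 and in WT median fold-enrichment was 4.57 and 5.02 and median −log10 p 25.2 and 25.5.

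Copied sequence was 85.2% at 90% identity over 100 bp and 55.6% at 99% over 180 bp. Gene-poor windows of 3 and 8 Mb held 50.3% and 83.6%. Overlap by 50% of both peaks was 27.4% with the same and 19.4% with the other protein, and summits within 100 bp gave 36.0% with the same protein. A cluster gap of 5 kb left 17 loci in the largest cluster.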

Other observations

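A small group of peaks without a gene matched organelle DNA. With at least 95% identity, 14 peaks at 9 nuclear loci had a copy in the chloroplast or mitochondrial genome. They were 9 of 53 in SVP:GFP in flc-3, 0 of 39 in SVP:GFP in WT, 4 of 177 in FLC in svp-41 and 1 of 103 in FLC in WT. Of the 9 in SVP:GFP in flc-3, 7 matched the chloroplast and 2 the mitochondrion, with a fold-enrichment of 1.68 to 2.54. Among peaks with a gene, 12 of 193 in SVP:GFP in flc-3, 0 of 484 in SVP:GFP in WT, 1 of 242 in FLC in svp-41 and 1 of 212 in FLC in WT matched organelle DNA in this way. The shares over all peaks were 8.54%, 0 of 523, 1.19% and 0.635% in the same order.

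Family 7 consisted of 6 peaks at 6 loci on chromosomes 1 and 2, all of FLC in WT. It was singled out after its values were seen, and 4 of the 6 lay in tandem repeats, most often with a period of 97 bp. Fold-enrichment ranged from 2.43 to 6.03, and no peak of FLC in svp-41 overlapped any of them. In FLC in WT, 58.1% of all peaks and 65.05% of those without a gene overlapped a peak in svp-41. With 6 peaks picked in this way, the lack of overlap cannot be read as a difference between genotypes.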
